A study of Homo sapiens with 12 samples.

Results

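The data described here are the 6 siCHKA samples of a 12-sample RNA sequencing series, which fall into a pair of subsets: replicates 1, 3 and 5 on one side and replicates 2, 4 and 6 on the other, 3 samples each. The subsets were seen in the expression values themselves, with KLK3 as the gene that marked them. The labels name no batch, date or other property that separates odd from even replicate numbers. Every difference between the subsets in gene expression is therefore given as a description, without a p-value.

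All 12 samples were C4-2 cells, an androgen-responsive line derived from LNCaP prostate cancer cells that grows without androgen supplementation, kept in RPMI medium with 10% serum. The siCHKA samples were transfected with a mixture of siRNAs that target CHKA at 50 nM, and the 6 siNT samples received nontargeting siRNA at the same dose, both delivered by lipid reverse transfection. The study compared these labels to see which transcripts change when choline kinase alpha is depleted. The labels also mention flow sorting before RNA extraction. The model is 1 cell line and 1 siRNA pool, and the study calls its replicates biological, while the labels do not say whether they came from separate cultures, so part of the spread between them may be technical.

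CHKA encodes choline kinase alpha, the enzyme that phosphorylates choline in the first step of the Kennedy pathway to phosphatidylcholine. KLK3 encodes prostate-specific antigen, a secreted protease whose transcription is induced by androgen, and its close relative KLK2 is controlled in the same way. Small interfering RNAs act through Argonaute proteins, which cleave the matched messenger RNA in the cytoplasm.

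Values are CPM, the reads on a gene relative to all reads on genes of the sample, scaled between samples by the trimmed mean of M values (TMM), and differences are in log2 CPM. A signed value in parentheses after a gene name is the mean log2 CPM of siCHKA replicates 1, 3 and 5 minus that of replicates 2, 4 and 6, and where 3 values are set against 3 others, replicates 1, 3 and 5 come first. Of the 54127 gene identifiers, 14501 were expressed highly enough to be tested. The reads on genes ranged from 12158361 to 20670479 in the siCHKA samples and from 10685184 to 24246055 in the siNT samples. CHKA (ENSG00000110721) checked the labels: it lay at 2.15, 1.91 and 2.34 CPM in siCHKA replicates 1, 3 and 5, at 3.19, 4.67 and 2.27 CPM in replicates 2, 4 and 6, and at 36.7 to 43.3 CPM in the siNT samples. The siCHKA values of the subsets overlapped, with a difference of −0.58 on the log2 scale (pooled SD 0.37), so the CHKA level that remained did not separate every sample. All 6 siCHKA samples were far below all 6 siNT samples (log2 fold change −3.88, SE 0.14, adjusted p = 5.89e-13, edgeR).

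The subsets were tight within and apart from each other. Over the 9629 genes with at least 10 CPM on average, any 2 samples of replicates 1, 3 and 5 differed by a root mean square of 0.131 to 0.144 on the log2 scale, and any 2 of replicates 2, 4 and 6 by 0.103 to 0.120. Across the subsets the 9 pairs differed by 0.214 to 0.293, which does not overlap either range. The subsets were seen in these values, so the separation is a description and no evidence for them. Among siNT samples, pairs within replicates 1, 3 and 5 differed by 0.126 to 0.241 and within 2, 4 and 6 by 0.193 to 0.223. Across these numbers siNT pairs differed by 0.125 to 0.255, so the controls reached into the range across the siCHKA subsets. Knockdown and control samples were further apart still, at 0.501 to 0.578. The first principal component held 54.4% of the variance among the siCHKA samples and the next held 15.6%. Among the siNT samples they held 34.3% and 24.3%.

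**Figure D1:**
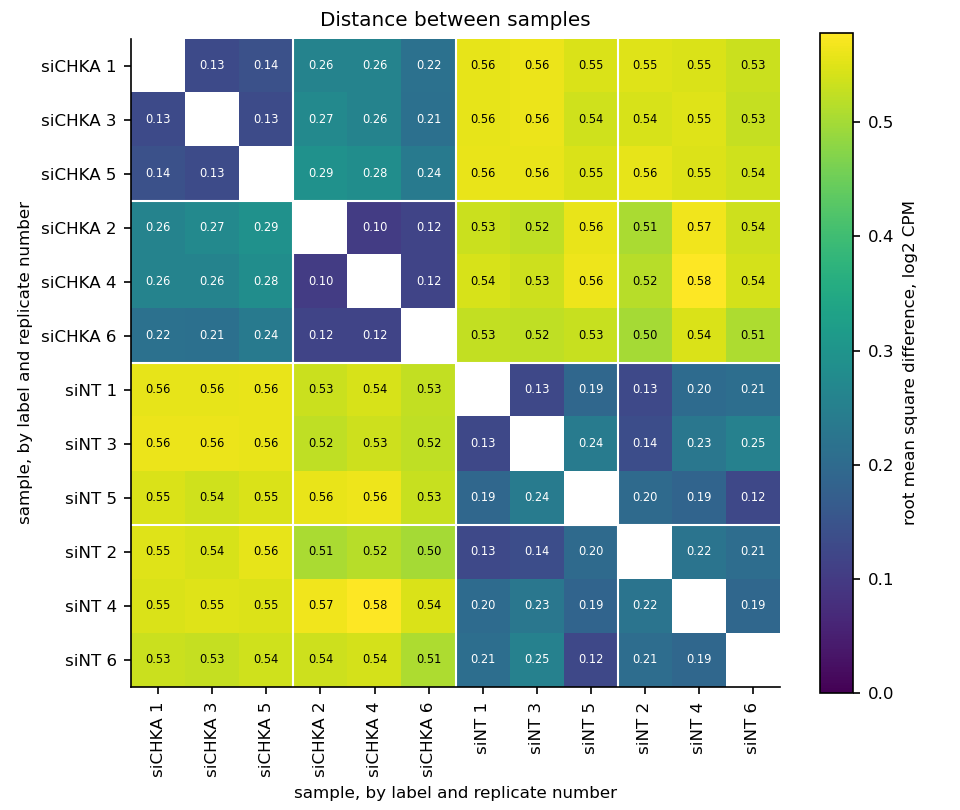
Root mean square difference in log2 CPM for every pair of the 12 samples, over genes with at least 10 CPM on average. Rows and columns are samples ordered by label and replicate number, and white lines separate odd from even numbers. The siCHKA samples form 2 dark blocks of 3, at 0.103 to 0.144, with 0.214 to 0.293 between the blocks, whereas siNT replicates 1, 2 and 3 and siNT replicates 5 and 6 are the closest pairs among the controls.

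A gene was counted as higher or lower in replicates 1, 3 and 5 when its 3 values all lay beyond the 3 values of replicates 2, 4 and 6 and the means differed by at least 0.32 on the log2 scale. By this measure 996 genes were higher (6.87% of the genes tested) and 1520 were lower (10.5%). These shares are the outcome of choosing the subsets and are no evidence for them. Counts of gene list members below are to be read beside these shares, since a list near them is like the genes at large. Genes that did not overlap at any fold numbered 3565 higher and 3318 lower, and genes past 2-fold numbered 9 higher and 97 lower, so the differences were mostly small and the larger ones mostly lower in replicates 1, 3 and 5. In the siNT samples, which the choice of subsets did not use, the same split by replicate number gave 167 genes higher (1.15%) and 161 lower (1.11%). A test of that siNT split found 0 genes past an adjusted p of 0.05 (edgeR), with 321 at an unadjusted p below 0.05, and DESeq2 found 0 and 108. Without siNT replicate 5 the edgeR test called 6 genes.

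The prostate luminal genes held some of the clearest differences, in both directions. KLK3 (ENSG00000142515) was at 1780, 1734 and 1726 CPM in siCHKA replicates 1, 3 and 5 and at 2747, 2728 and 2603 CPM in replicates 2, 4 and 6, against 2782 to 3811 CPM in the siNT samples. Every sample of the first subset was below every sample of the second, and the means (SD, n = 3) were 1747 ± 29.1 and 2693 ± 78.2 CPM, a difference of −0.62 on the log2 scale. Against siNT, KLK3 fell in the fit over all samples (log2 fold change −0.55, SE 0.13, adjusted p = 0.00109, edgeR). That value joins 2 unequal parts, −0.90 for replicates 1, 3 and 5 alone and −0.27 for replicates 2, 4 and 6 alone, both set against the same 6 siNT samples.

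KLK2, the neighboring kallikrein protease, had the same order. It was at 158, 154 and 168 CPM in replicates 1, 3 and 5, at 287, 283 and 279.7 CPM in replicates 2, 4 and 6 and at 451 to 617 CPM in siNT. The log2 fold change against siNT was −1.69 in the first subset and −0.86 in the second. TRPM8, a cold-sensing calcium channel of prostate epithelium, was likewise lowest in replicates 1, 3 and 5 (27.4, 25.6 and 28.2 CPM), intermediate in replicates 2, 4 and 6 (44.2, 42.6 and 45.7 CPM) and highest in siNT (64.5 to 90.8 CPM). For these 3 genes the 3 sets of samples did not overlap, and the closest approach was KLK3 in siNT replicate 3 (2782 CPM), just above the highest of replicates 2, 4 and 6.

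Other luminal genes were arranged differently. ACP3, prostatic acid phosphatase, was at 9.90, 8.52 and 8.63 CPM in replicates 1, 3 and 5 and at 13.9, 13.996 and 14.6 CPM in replicates 2, 4 and 6, with siNT at 7.39 to 10.8 CPM, so that the second subset stood above the controls. CRISP3, a secreted cysteine-rich protein induced by androgen, was raised over siNT in both subsets, at 22.1, 20.8 and 20.3 and at 29.9, 27.8 and 26.7 CPM against 9.01 to 11.1. FKBP5, a chaperone of steroid receptors and one of the most responsive androgen-induced genes, went the other way from KLK3. It was at 206, 196 and 205 CPM in replicates 1, 3 and 5, at the low end of, or just under, the siNT range of 200.4 to 237 CPM, and at 139, 149.8 and 144 CPM in replicates 2, 4 and 6. Its log2 fold change against siNT was −0.09 in the first subset and −0.58 in the second. IQGAP2, a scaffold protein, had the same order as FKBP5, with 168, 160.5 and 171 against 117, 122 and 129 CPM and siNT at 149.9 to 189 CPM.

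Of 37 tested androgen-induced genes (39 listed), 5 were higher (13.5%) and 7 lower (18.9%) in replicates 1, 3 and 5. All tested genes had 6.87% higher and 10.5% lower. The median difference of the list was −0.09 where all tested genes had −0.01. The siNT samples, split by the same numbers, gave a median of −0.08 for this list. The other members counted higher were HOMER2, MAF and ZBTB10, and the other members counted lower were STEAP2, AZGP1, KLK4 and TMPRSS2. Both directions therefore occurred among androgen-induced genes. The per-sample medians of this list relative to siNT did not separate the subsets, at −0.22, −0.26 and −0.24 in replicates 1, 3 and 5 and −0.24, −0.25 and −0.31 in replicates 2, 4 and 6. Of 22 tested luminal identity genes, 2 were higher (9.09%) and 8 lower (36.4%). The higher ones were the cell adhesion gene CDH1 (0.35) and the keratin gene KRT8 (0.33). Only 1 was counted higher when replicate 2, 3, 4 or 5 was left out.

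The stress genes of the ATF4 program were lower in replicates 1, 3 and 5. ATF4 is a transcription factor that is translated when amino acids are short or the endoplasmic reticulum is stressed, and it drives amino acid synthesis and uptake along with stress regulators. Of 38 tested genes, 16 were lower (42.1%, against 10.5% of all tested genes) and 0 higher, with a median of −0.25. NUPR1, a stress-induced chromatin protein, was at 112, 105 and 106.8 CPM in replicates 1, 3 and 5 and at 195, 219.9 and 223 CPM in replicates 2, 4 and 6, about 1.97 times higher in the latter. In siNT it ranged from 99.4 to 213 CPM, so the first subset lay at the low end of the controls, while only siNT replicate 6 came near the second. DDIT3, which encodes the stress transcription factor CHOP, was at 35.5, 32.7 and 32.03 CPM against 52.4, 56.5 and 52.9 CPM, with siNT in between at 38.3 to 45.5 CPM. CHAC1, which degrades glutathione, was at 10.9, 12.6 and 12.3 CPM against 18.3, 19.9 and 19.9 CPM, and there the siNT samples (19.04 to 22.2 CPM) overlapped the second subset.

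The 13 other members counted lower were the transcription factor ATF4 itself, its targets ATF3 and TRIB3, the amino acid synthesis genes ASNS, PSAT1, PSPH and MTHFD2, the transporters SLC7A11 and SLC6A9, and NARS1, SESN2, STC2 and VEGFA. The median of the list relative to siNT was −0.34, −0.37 and −0.38 in replicates 1, 3 and 5 and −0.14, −0.15 and −0.09 in replicates 2, 4 and 6. Each of the 6 leave-one-out counts of lower members lay between 15 and 17. In the chaperone branch of the unfolded protein response, 3 of 40 genes were lower, DNAJB9 (−0.54), HERPUD1 (−0.53) and ERO1B (−0.37), and 0 higher. That is 7.50%, under the 10.5% of all tested genes, and the median of the list was −0.05 both in siCHKA and in siNT split by the same numbers.

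Glycolysis and hypoxia genes were also lower in replicates 1, 3 and 5, with 9 lower and 1 higher of 37. The shares were 24.3% and 2.70%, against 10.5% and 6.87% of all tested genes. VEGFA, the angiogenic growth factor, was at 86.1, 82.7 and 81.3 CPM in replicates 1, 3 and 5 and at 135.4, 134.8 and 130.4 CPM in replicates 2, 4 and 6. The siNT samples were between them at 103 to 125 CPM, and the labelled comparison over all 12 samples gave a log2 fold change of −0.01 (adjusted p = 0.976, edgeR), with −0.39 in the first subset alone and 0.29 in the second. PDK1, the kinase that restrains pyruvate entry into mitochondria, was at 93.5, 86.9 and 86.5 against 137, 128 and 132 CPM. ENO2, a glycolytic enolase that is also a neuroendocrine marker, was at 14.7, 12.5 and 10.97 against 15.9, 17.96 and 20.7 CPM, all above 5 of the 6 siNT samples (5.21 to 11.3 CPM). The remaining members counted lower were CA9, ANKRD37, PFKFB4, SLC2A1, BNIP3 and PGK1. HK1, the hexokinase that phosphorylates glucose, was the exception, at 239.9, 231.4 and 256 against 158, 155 and 164.5 CPM. This list also varied among the controls, where the per-sample medians ran from −0.18 to 0.25. Split by odd and even number, siNT had a median difference of −0.14 for the list, farther from 0 than the −0.10 in siCHKA.

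Over genes with at least 10 CPM, the largest positive difference was in ARRDC4, an arrestin-domain protein whose transcription responds to glucose and which limits glucose uptake. It was at 40.4, 42.997 and 33.97 CPM in replicates 1, 3 and 5 and at 16.7, 15.9 and 17.7 CPM in replicates 2, 4 and 6, 2.31 times higher in the former. The siNT samples lay in a narrow band between them, at 21.4 to 24.4 CPM. The labelled comparison gave 0.26 (adjusted p = 0.322, edgeR), made up of 0.76 for replicates 1, 3 and 5 and −0.47 for replicates 2, 4 and 6. CLU, the secreted chaperone clusterin, was at 37.9, 46.1 and 47.7 against 22.9, 23.6 and 24.9 CPM, and here replicates 1, 3 and 5 overlapped the siNT samples (40.01 to 51.1 CPM).

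Metallothioneins, small metal-binding proteins induced by zinc, were among the most different genes in the opposite direction. MT2A was at 15.1, 13.5 and 12.7 CPM in replicates 1, 3 and 5, at 28.9, 29.8 and 34.4 CPM in replicates 2, 4 and 6 and at 34.7 to 54.8 CPM in siNT. MT1X was at 9.68, 8.91 and 7.67 CPM, at 14.4, 19.9 and 19.1 CPM and at 14.8 to 21.5 CPM in the same order, so that replicates 1, 3 and 5 stood below both the second subset and the controls. MT1F was also lower (−0.64). The other 11 of 14 tested genes of zinc and iron handling were not counted either way, so 21.4% were lower, against 10.5% of all tested genes. Metallothionein genes are close copies of one another, and 40-base reads shared between copies were left out by the counting, so the split of reads among them is uncertain.

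Lipid synthesis genes were higher in replicates 1, 3 and 5. Of 25 sterol genes, 7 were higher (28.0%, against 6.87% of all tested genes) and 0 lower, with a median of 0.19. FDFT1, which makes squalene, was at 668, 666 and 650.0 CPM against 482, 503 and 481 CPM, with siNT at 584 to 639 CPM. HMGCS1, which acts just before the rate-limiting step of cholesterol synthesis, was at 241, 226 and 219.9 against 175, 172 and 169 CPM. The genes SQLE, DHCR7, INSIG1 and SREBF2 were also among the 7. These genes are targets of the sterol-sensing factor SREBP2, which SREBF2 encodes.

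Of 27 fatty acid genes, 4 were higher (FASN, FADS2, SCD and ME1) and 1, FADS3, was lower. The shares were 14.8% and 3.70%, against 6.87% and 10.5% of all tested genes. FASN, fatty acid synthase, was at 1336, 1703 and 1737 CPM in replicates 1, 3 and 5 and at 856, 1020.2 and 1013 CPM in replicates 2, 4 and 6. The first subset overlapped the siNT samples (1473 to 2064 CPM), and the log2 fold change of FASN against siNT was −0.10 there and −0.83 in replicates 2, 4 and 6. FADS2 and SCD, both fatty acid desaturases, were at 877, 954 and 1009.9 against 695, 694 and 725 CPM and at 1270.2, 1238 and 1269 against 914, 942 and 1018 CPM. The 16 tested genes of the Kennedy pathway, to which CHKA belongs, hardly separated the subsets, with a median of −0.01 and 1 gene lower, the choline and ethanolamine phosphotransferase CEPT1 (−0.33).

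Chaperone and antioxidant genes had smaller differences. Of 33 heat shock genes, 4 were higher (12.1%, against 6.87% of all tested genes) and 0 lower. These were HSPB8, HSPA1A, HSPA1B and HSP90AA1. The last was at 3391, 3127 and 3154 against 2605, 2464 and 2524 CPM with siNT at 3765 to 4440.2 CPM. Without replicate 5, 7 were higher. HSPA1A and HSPA1B are near-identical copies and their counts are uncertain. Among 20 NRF2 and glutathione genes, 4 were higher and 1 lower. HMOX1, which degrades heme, was at 94.7, 93.1 and 95.7 CPM against 53.3, 71.3 and 67.3 CPM, and GCLM, a subunit of the enzyme that starts glutathione synthesis, at 102, 92.5 and 89.6 against 67.1, 67.5 and 72.04 CPM. HMOX1 was spread widely in siNT, from 28.7 to 66.2 CPM. SLC7A11, the cystine importer, was the member counted lower (−0.46), and it belongs to the ATF4 list as well.

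Signaling genes differed in both directions. Of 24 immediate early genes, 3 were higher, JUN (0.52), IER5 (0.49) and FOSL2 (0.39), and 3 lower, KLF4 (−0.50), DUSP5 and ATF3. Each side was 12.5%, where all tested genes had 6.87% higher and 10.5% lower. Without replicate 1 or replicate 2, 5 were lower, without replicate 4, 5 were higher and 2 lower, and without replicate 5, 4 were higher and 1 lower. Of 13 targets of YAP and TGF-beta, 4 were higher (30.8%, against 6.87% of all tested genes) and 0 lower. LATS2, a kinase that restrains YAP, was at 63.3, 66.8 and 66.3 CPM against 46.9, 45.9 and 46.8 CPM, above siNT (27.9 to 33.7 CPM) in both. ID2, ID3 and LTBP1 were the others, and without replicate 1 the 4 became 2. CDKN1A, the p21 inhibitor of cell cycle kinases, was at 103, 110.3 and 91.3 against 66.3, 73.9 and 70.6 CPM with siNT at 44.8 to 52.4 CPM, and GDF15, a stress-induced secreted factor, was at 206, 215 and 225 against 312, 381 and 414 CPM. GDF15 ranged from 149.7 to 428 CPM within siNT, wider than the distance between the subsets. Of 29 p53 targets, CDKN1A and GDF15 made up 2 of the 3 counted, 1 higher (3.45%) and 2 lower (6.90%). Both shares were under those of all tested genes. The counts were 3 and 2 without replicate 4, 2 and 2 without replicate 5, and 1 and 1 without replicate 6.

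Cell cycle genes, which fell together under the knockdown, hardly set the subsets apart. Of 48 DNA replication genes, 47 fell in siCHKA against siNT (edgeR, adjusted p below 0.05), with a median log2 fold change of −1.33, but 1 was higher and 0 lower between the subsets (median 0.05). Of 50 mitosis genes all 50 fell, with a median of −1.32, and 2 were higher and 2 lower between the subsets (median 0.02). MKI67, the proliferation marker, was nonetheless at 103, 111 and 137 CPM in replicates 1, 3 and 5 and at 69.6, 83.2 and 87.7 CPM in replicates 2, 4 and 6, with siNT at 191 to 312 CPM, and CENPF, a kinetochore protein, at 129, 130.1 and 149.7 against 92.4, 97.9 and 103 CPM. NUF2 (−0.54) and CKS2 (−0.33) went the other way. MKI67 and CENPF have long messenger RNAs, and the same direction held for long messenger RNAs at large. With an offset for GC content and length, fitted across genes in each sample, 0 of the mitosis genes were counted higher and 1 lower, and 0 of the DNA replication genes were counted either way.

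Transcript length ran through the whole comparison. Among 12317 tested protein-coding genes grouped by their longest annotated transcript, 28.7% of those over 12000 bases were higher in replicates 1, 3 and 5 (85 of 296) and 4.73% lower. At 8000 to 12000 bases 24.3% were higher and 2.74% lower. At 4000 to 8000 bases the shares were nearly even, 8.53% and 7.98%, and below 1000 bases 1.32% were higher and 11.9% lower (36 of 303). The median length was 6655 bases in the protein-coding genes counted higher, 3256.5 in those counted lower and 3932 in all. An offset for GC content and length left 729 genes higher and 1456 lower, against 996 and 1520 without it.

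Some of the leading genes with higher values had long transcripts, such as DYNC1H1 (20066 bases) and HTT (14438 bases). Others did not, namely ARRDC4 (4062 bases), CLU (2807 bases), MT-RNR2 (1559 bases) and MT-RNR1 (954 bases). DYNC1H1, the heavy chain of the cytoplasmic dynein motor, was at 391, 463 and 639 CPM in replicates 1, 3 and 5 and at 199.8, 264 and 284 CPM in replicates 2, 4 and 6. MYH9, nonmuscle myosin heavy chain, was at 865, 963 and 1019.9 against 508, 549 and 601 CPM, and HTT, which encodes huntingtin, at 87.1, 97.9 and 113 against 51.96, 62.8 and 62.2 CPM. ITPR2, a calcium release channel, and HIPK2, a nuclear kinase, differed by 0.82 and 0.78. For DYNC1H1 the siNT samples 1 to 6 were at 269, 217, 239, 385, 432 and 397 CPM, so that the controls covered both the upper range of replicates 2, 4 and 6 and the lower range of replicates 1, 3 and 5.

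Genes of the silencing machinery were counted higher as well, 6 of 16 (37.5%, against 6.87% of all tested genes). Of these 16, 0 were lower, and the median was 0.29. TNRC6B, a scaffold that links Argonaute to deadenylation, was at 187, 206 and 219.8 CPM in replicates 1, 3 and 5 and at 106, 128 and 130.3 CPM in replicates 2, 4 and 6. DICER1, which cuts microRNA precursors, was at 269.7, 279.7 and 288 against 160.4, 182 and 179 CPM, and AGO1 at 70.6, 75.6 and 83.2 against 51.4, 53.6 and 51.3 CPM. AGO2, TNRC6A and CNOT1 were the others. Most of these transcripts are long, and with the offset for GC content and length only 2 of the 16 were counted, with a median of 0.14. Among 13 genes that sense foreign RNA, 5 were higher (38.5%) and 1 lower (7.69%, against 10.5% of all tested genes), with a median of 0.16. With the offset the counts became 3 and 1 and the median 0.02. OAS3 and IFIH1 were among the 5 and also belong to the interferon-stimulated list. OAS3, which is activated by double-stranded RNA, was at 13.6, 14.2 and 14.8 against 8.33, 8.26 and 10.9 CPM, but siNT was at 14.4 to 17.5 CPM. Of 29 interferon-stimulated genes, 5 were higher (17.2%, against 6.87% of all tested genes), ISG15 (0.40) among them. STAT2 (−0.42) was the 1 counted lower (3.45%, against 10.5%).

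Long noncoding and nuclear RNAs were mostly lower. Of 16 tested RNAs of this list, 10 were lower (62.5%, against 10.5% of all tested genes) and 1 higher (6.25%). The median of −0.46 was the lowest of the 33 lists. SNHG1, a host gene of small nucleolar RNAs, was at 48.8, 48.5 and 46.7 CPM in replicates 1, 3 and 5 and at 89.4, 94.8 and 79.7 CPM in replicates 2, 4 and 6, with siNT at 134, 143, 137, 77.2, 98.998 and 91.02 CPM. PVT1, an RNA transcribed beside MYC, was at 18.6, 18.7 and 18.6 against 32.6, 32.2 and 27.2 CPM, with siNT at 21.5 to 28.9 CPM. SNHG12 (−0.68), SNHG5, SNHG15, GAS5, ZFAS1 and EPB41L4A-AS1, and the abundant nuclear RNAs NEAT1 and MALAT1, were the others lower. OIP5-AS1, a largely cytoplasmic RNA, was higher (0.35). Over all 962 tested genes annotated as lncRNA, 222 were lower (23.1%) and 24 higher (2.49%), so lncRNAs made up 14.6% of the lower genes against 6.63% of all tested genes. Low expression ran alongside, since 19.2% of the genes in the lowest 20% by expression were lower.

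Annotation of intron-retaining transcripts also ran alongside. Among protein-coding genes with no annotated retained-intron transcript, 6.99% were lower in replicates 1, 3 and 5, and the share was 8.44% where such transcripts made up to 20% of the annotated forms, 10.7% at 20 to 40% and 14.5% above 40%. Among genes with at least 10 CPM, the largest negative difference was in PABPC1L. It encodes a poly(A)-binding protein and was at 8.77, 8.96 and 9.60 CPM against 27.1, 29.3 and 21.2 CPM, 2.79 times higher in replicates 2, 4 and 6, and siNT replicates 1 to 6 were at 21.3, 23.8, 24.2, 5.23, 13.9 and 14.5 CPM. PILRB was at 17.5, 17.5 and 14.8 against 38.1, 40.9 and 30.8 CPM and RSRP1 at 9.25, 8.18 and 8.88 against 19.5, 19.7 and 15.8 CPM. PLEKHG4 (−1.30), CCDC78 (−1.04), the deadenylase gene PAN2 (−1.13) and the pseudogenes AHSA2P (−1.19) and SSPOP (−1.11) completed the 10 largest negative differences with the metallothioneins MT2A and MT1X. Whether unspliced RNA carried these reads cannot be read from counts per gene.

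Splicing regulators differed in both directions. Of 43, 11 were lower (25.6%) and 5 higher (11.6%), against 10.5% and 6.87% of all tested genes. CLK1, a kinase of splicing factors whose own messenger RNA is held in the nucleus with introns retained, was at 31.2, 27.7 and 25.6 CPM against 49.8, 50.3 and 40.8 CPM, and CLK2 at 33.2, 30.9 and 32.1 against 50.1, 50.7 and 42.98 CPM. CLK4, RBM5, RBM39 and the SR protein genes SRSF2, SRSF5, SRSF6, SRSF7 and SRSF11 were also lower. HNRNPH1 was at 252, 248 and 238 against 402, 403 and 357 CPM. By contrast HNRNPA3 was at 251, 259.8 and 259 against 176, 186 and 192 CPM and HNRNPA2B1 at 1423, 1345 and 1324 against 1028, 1011 and 1040 CPM, with HNRNPU, HNRNPUL2 and HNRNPH2 also higher (3 in all without replicate 1). In the labelled comparison 35 of the 43 fell and 2 rose (edgeR, adjusted p below 0.05).

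Cytosolic ribosomal protein genes were counted in 1 direction only. Of 83, 13 were lower (15.7%, against 10.5% of all tested genes) and 0 higher, with a median of −0.22. The longest annotated transcripts of RPS3A, RPS15A and RPL9 were 1526, 3828 and 2420 bases, where tested protein-coding genes had a median of 3932. RPS3A was at 531, 469 and 518 CPM in replicates 1, 3 and 5 and at 731, 720.4 and 607 CPM in replicates 2, 4 and 6, and RPS15A and RPL9 differed by −0.43 and −0.43. With the offset for GC content and length, 7 were lower, as without replicate 2, while without replicate 6 there were 22. The median with the offset was −0.16. Ribosomal protein genes have many processed copies in the genome, so reads shared with these were lost. Of 73 mitochondrial ribosomal protein genes 0 were counted either way (4 lower without replicate 6). Of 77 nuclear genes of oxidative phosphorylation 4 were lower, 5.19% against 10.5% of all tested genes. These were COX7B (−0.35), UQCR10 (−0.33), NDUFA4 (−0.33) and NDUFA4L2 (−1.34), with 1 left without replicate 2 or replicate 4. Primary cilium genes had 8 lower (16.3%, against 10.5% of all tested genes) and 0 higher of 49, and 12 were lower with the offset. BBS4, a subunit of the complex that carries proteins into cilia, was at 40.7, 32.6 and 35.5 against 59.4, 58.6 and 47.96 CPM. Of 422 tested zinc finger genes, 12 were higher (19 without replicate 3) and 25 lower, with a median of −0.02. These shares, 2.84% and 5.92%, were under the 6.87% and 10.5% of all tested genes. Proteasome genes had 3 higher and 0 lower of 38 (PSME4, PSMD2 and PSMD1). Lysosome and autophagy genes had 3 higher, NPC1, OPTN and NBR1, and 1 lower, GABARAPL2, of 36. The higher shares, 7.89% and 8.33%, were near the 6.87% of all tested genes. Replicative histones had 2 higher (15.4%, against 6.87% of all tested genes) and 0 lower of 13. Without replicate 1 or replicate 6, 1 was higher. NF-kB and inflammatory genes had 0 higher and 1 lower (8.33%, against 10.5% of all tested genes) of 12, TNFAIP2 (−0.57). Without replicate 1 there were 2 higher and without replicate 5 there were 3 higher, each with 1 lower.

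**Figure D2:**
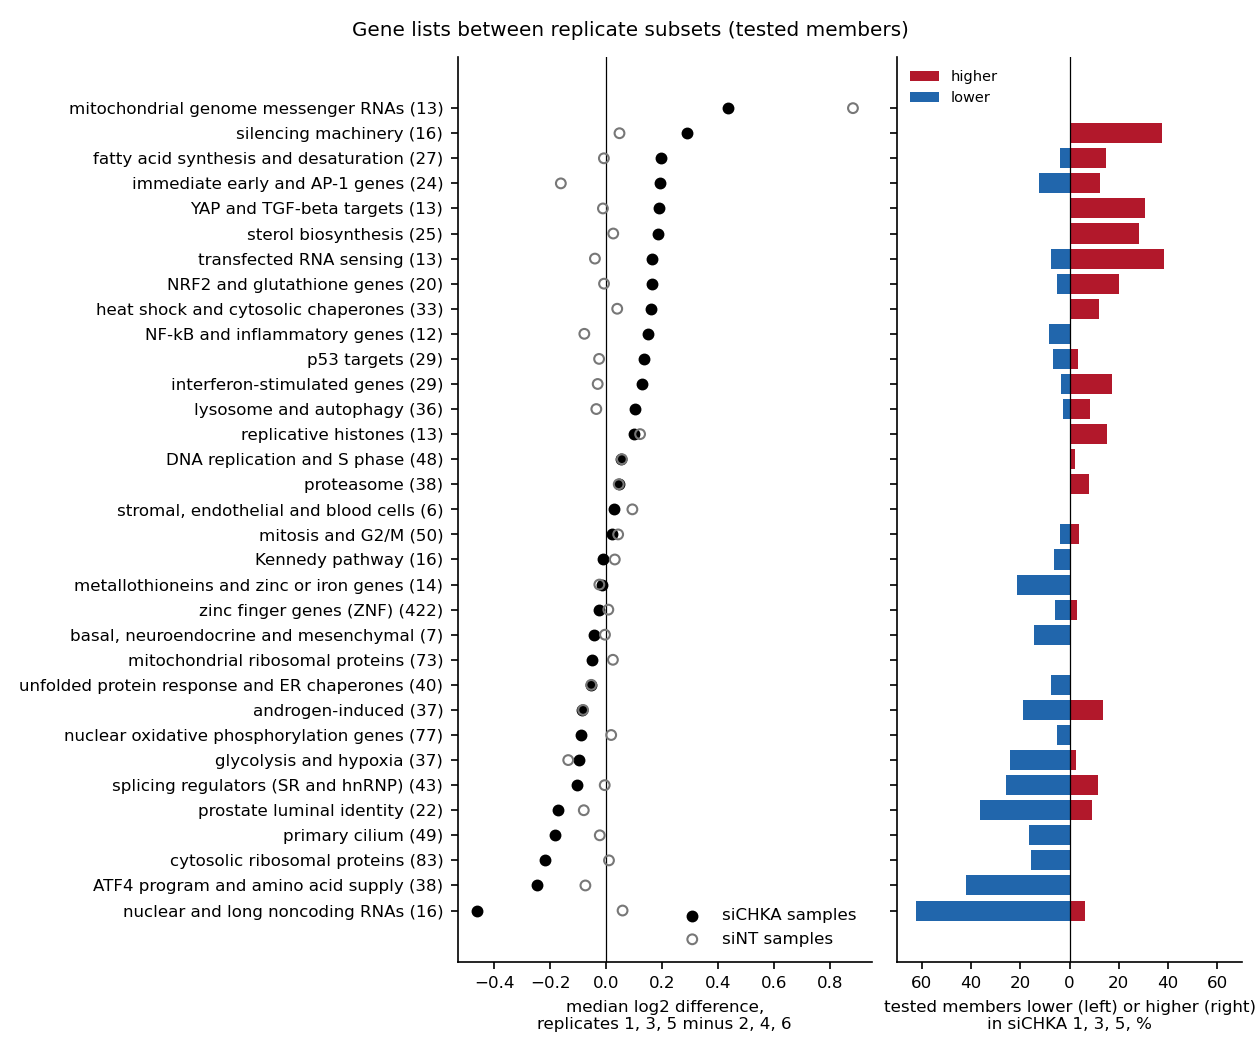
Left, median log2 difference between replicates 1, 3, 5 and replicates 2, 4, 6 for 33 gene lists, in the siCHKA samples (filled) and the siNT samples (open), with the number of tested genes after each name. Right, share of tested members counted lower (blue, to the left) or higher (red, to the right) in siCHKA replicates 1, 3, 5, in %. The long noncoding list (−0.46) and the ATF4 list (−0.25) lie lowest among the siCHKA medians, and the mitochondrial messenger RNAs (0.43) and the silencing machinery (0.29) highest. The siNT median has the same sign as the siCHKA one and is farther from 0 for the mitochondrial messenger RNAs, glycolysis and hypoxia, replicative histones, mitosis, DNA replication, metallothioneins with zinc or iron genes, and the stromal, endothelial and blood genes.

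Mitochondrial RNA was highest in 1 siCHKA sample. Genes of the mitochondrial genome took 2.16% of the reads in siCHKA replicate 5 and 0.816% to 1.07% in the other 5 siCHKA samples, and they ranged from 0.522% to 2.52% in siNT. MT-RNR2, the large mitochondrial ribosomal RNA, was at 1167, 1038 and 3533 CPM in replicates 1, 3 and 5 and at 987, 1014 and 865 CPM in replicates 2, 4 and 6. Its difference of 0.77, and that of 0.76 for MT-RNR1, became 0.21 and 0.39 without replicate 5. MT-RNR1 was at 377, 372 and 801 CPM in replicates 1, 3 and 5 and at 282, 303 and 272 CPM in replicates 2, 4 and 6, so that replicates 1 and 3 alone still lay above the second subset. Of the 13 mitochondrial messenger RNAs 0 were counted either way, and 8 were counted higher without replicate 3.

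Against siNT, the genes that set the subsets apart lay on both sides of the controls. Of the 996 genes higher in replicates 1, 3 and 5, the siNT mean lay between the subset means for 378, at or above replicates 1, 3 and 5 for 237 and at or below replicates 2, 4 and 6 for 381. Of the 1520 lower genes, the siNT mean lay between them for 617, at or below replicates 1, 3 and 5 for 554 and at or above replicates 2, 4 and 6 for 349. Neither subset was thus uniformly the closer one to the controls. The labelled comparison as a whole called 4650 genes higher (32.1%) and 4371 lower (30.1%) in siCHKA.

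Taken as a set, the same genes also spread the siNT samples, although not by odd and even number. Over the 996 higher genes, each siNT sample was set against the mean of all 6. The medians were −0.06, −0.12 and −0.10 in siNT replicates 1, 2 and 3 and 0.11, 0.12 and 0.07 in siNT replicates 4, 5 and 6. Over the 1520 lower genes they were 0.06, 0.13 and 0.09 in siNT replicates 1, 2 and 3 and −0.19, −0.04 and −0.02 in siNT replicates 4, 5 and 6. For comparison, the siCHKA samples lay at 0.19, 0.20 and 0.24 (replicates 1, 3 and 5) and −0.26, −0.21 and −0.15 (replicates 2, 4 and 6) over the higher genes. The control values come from samples that had no part in choosing the genes. The length classes above 4000 bases gave the same order. For genes over 12000 bases siNT replicates 1, 2 and 3 had medians of −0.06, −0.12 and −0.12 and siNT replicates 4, 5 and 6 had 0.03, 0.19 and 0.14. The classes up to 4000 bases did not, since siNT replicate 4 lay among replicates 1, 2 and 3. Below 1000 bases siNT replicates 1, 2 and 3 had 0.02, 0.09 and 0.15 and siNT replicates 4, 5 and 6 had 0.04, −0.13 and −0.14.

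**Figure D3:**
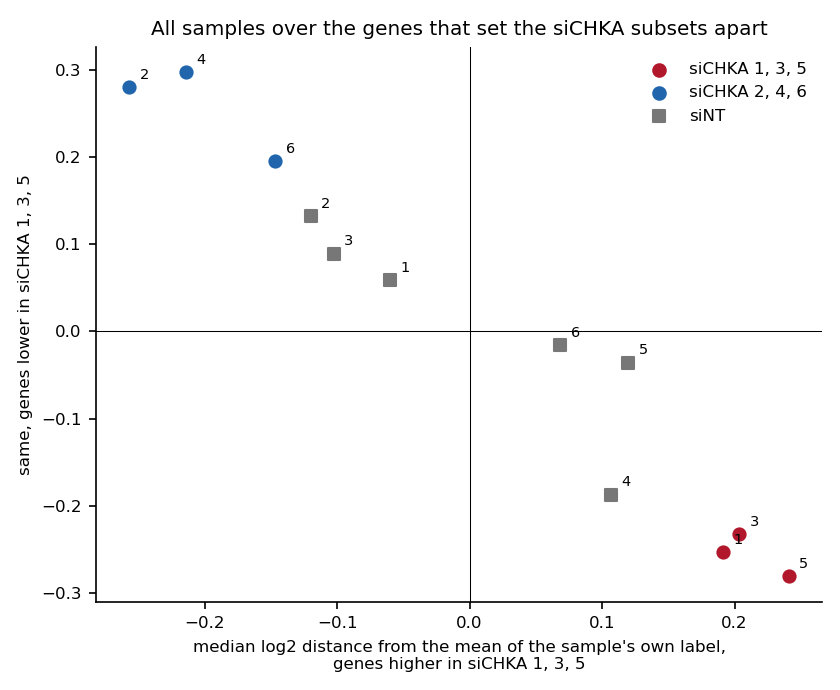
Position of each of the 12 samples over the genes higher (horizontal axis) and lower (vertical axis) in siCHKA replicates 1, 3 and 5, as the median log2 distance from the mean of the 6 samples with the same label. Numbers are replicates, circles siCHKA and squares siNT. The siCHKA positions are fixed by the choice of genes. The siNT samples 1, 2 and 3 lie on the side of siCHKA replicates 2, 4 and 6, and the siNT samples 4, 5 and 6 on the side of siCHKA replicates 1, 3 and 5.

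Not every gene of the siCHKA split showed this spread in the controls, and the examples here were picked after their values were seen. PABPC1L, PILRB, AHSA2P, SNHG1, TNRC6B and DYNC1H1 did, with all of siNT replicates 4, 5 and 6 on one side of siNT replicates 1, 2 and 3 and in the direction of siCHKA replicates 1, 3 and 5. ARRDC4 did not, with siNT replicates 1 to 6 at 23.1, 24.4, 23.7, 21.4, 23.1 and 23.4 CPM. KLK2 was at 472, 507, 451, 536, 506 and 617 CPM in siNT replicates 1 to 6 and MT2A at 34.7, 40.4, 42.2, 45.5, 40.4 and 54.8 CPM, where replicates 4, 5 and 6 were not the lower ones although siCHKA replicates 1, 3 and 5 were. In siNT, KLK2 was instead lower in each of replicates 1, 3 and 5 than in any of replicates 2, 4 and 6, the direction of the siCHKA subsets, with a difference of −0.21 (edgeR, unadjusted p = 0.0407). After adjustment over all genes it did not pass. Split by the same numbers, siNT differed by −0.19 for KLK3, −0.45 for NUPR1, −0.62 for GDF15 and −0.25 for MT2A, also in the siCHKA direction. The direction was opposite for JUN at −0.26, FOSL2 at −0.27 and PABPC1L at 0.66. None of these genes passed after adjustment (edgeR). DDIT3 was at 39.1, 45.5, 40.4, 39.2, 38.3 and 43.3 CPM in siNT, without such an order.

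The read classes of the counting step, which had no part in choosing the subsets, were compared by exact permutation tests. For every 100 reads counted, siCHKA replicates 1, 3 and 5 had 39.1, 38.1 and 41.2 alignments that were not unique and replicates 2, 4 and 6 had 44.005, 43.2 and 41.6. The subsets did not overlap. The two-sided exact permutation test gave p = 0.1 (adjusted p = 0.333 over 10 tests), which is the smallest that 3 against 3 samples allow, so no read class could pass a threshold of 0.05. In siNT, split by the same numbers, the values were 39.1 ± 3.5 and 38.04 ± 1.8 (SD, n = 3 each). Ambiguous reads (4.03 ± 0.04% and 4.10 ± 0.02%) and genes with at least 1 read (23473 ± 669 and 24452 ± 108) did not overlap either. Both were higher in the second subset (SD, n = 3 each, exact permutation p = 0.1, adjusted p = 0.333). Reads outside annotated genes were 7.22 ± 0.53% in the first subset and 7.82 ± 0.63% in the second (SD, n = 3 each, exact permutation p = 0.4). Reads on genes also overlapped (exact permutation p = 0.5). The part of these classes in the gene differences was not tested.

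Both subsets had the profile of prostate luminal cancer cells. KLK3, HOXB13 (253, 272 and 266 and 317, 293 and 320.1 CPM) and FOXA1 (310.5, 295 and 302 and 315, 296 and 324 CPM) were expressed in all 6 siCHKA samples. Summed over 20 listed basal, neuroendocrine and mesenchymal genes, replicates 1, 3 and 5 had 128 to 144 CPM and replicates 2, 4 and 6 had 136 to 162 CPM, with CDH2 and INSM1 at 0 in all siCHKA samples. The 21 measured stromal, endothelial and blood genes summed to 33.4 to 40.3 CPM and 38.1 to 44.5 CPM, and KDR, MS4A1, CD3D, CD3E, HBA1 and HBB were at 0. In bulk RNA of this kind, fewer cells in a state and less RNA per cell cannot be told apart. No label records a batch, so a batch that followed odd and even numbers and a difference between cultures cannot be told apart.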

How the data were processed

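Polyadenylated RNA of 12 C4-2 samples was sequenced as single-end 40-base reads. Per the labels and the study's methods, the authors aligned reads with TopHat2 2.0.4 to GRCh37, counted reads per gene of Ensembl release 64 with HTSeq 0.5.3p9 and tested with DESeq 1.10.1. They deposited raw counts, 4 files per sample. What distinguishes the 4 files is not given in the sources used here, and neither is the strand setting, so overlapping and antisense genes may share reads.

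The 4 files were summed per sample and the 5 total rows were removed from the counts. Symbols, gene types and transcript lengths came from GENCODE 44 by identifier (44824 of 54127 identifiers, 82.8%). That annotation is on another build, so no coordinates are given. Filtering (filterByExpr), TMM scaling and the quasi-likelihood test with Benjamini-Hochberg adjustment used edgeR 4.0.16 in R 4.3.3, with a prior count of 2 for log2 CPM and a threshold of 0.05. DESeq2 1.42.0 was an alternative. Exact permutation tests used scipy 1.17.1. In simulated counts for 14501 genes, 200 genes were changed 2-fold. The siNT split recovered 90% of these with 10 false among 190 calls, and the labelled comparison 99% with 12 false among 210. Recovery at smaller folds was not tested.

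The replicate subsets, the gene lists and the members of each were chosen with earlier results of these data known. The rule for named genes was KLK3 and CHKA, the 10 largest positive and 10 largest negative differences among non-overlapping genes with a symbol and at least 10 CPM, and up to 3 counted members of each list in each direction with at least 5 CPM. The luminal markers were named in addition, and MT1F, NDUFA4L2 and other counted list members with under 5 CPM or outside the first 3 were named to account for each list. A few genes named by this rule are not reported here. Alternatives were other scaling, filters, prior counts, folds, only 1 of the 4 files, a correction for GC content and length fitted as an offset, and leaving out each replicate. With 10685184 to 24246055 reads on genes per sample, 3 counts equal 0.124 to 0.281 CPM. These limits cover counting error only.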

Additional observations from a re-analysis of the deposited data

Results flagged for a closer look

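Samples were examined for values far from the other 5 of their label (Dixon's test), which chance meets in about 1 of 20 groups. Of 296 groups examined, 11 held such a sample. The 14.8 expected by chance holds only for independent groups that were not chosen by their values. Many genes here were chosen because the siCHKA subsets did not overlap, and some groups share genes. The count of 11 was therefore not compared with 14.8. In siCHKA, all 5 such samples were replicate 5. Its mitochondrial share of reads was 2.16%, against 0.816% to 1.07% in the others, the median of the mitochondrial messenger RNAs relative to siNT was 0.92 (others −0.43 to −0.02), MT-RNR2 was at 3533 CPM (others 865 to 1167 CPM) and MT-RNR1 at 801 CPM (others 272 to 377 CPM). The median of the replicative histones was lowest in the same sample, at 0.0094 against 0.20 to 0.32.

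In siNT, replicate 6 had the lowest median of the DNA replication list (−0.11, others 0.01 to 0.05) and the highest MT1X (21.5 CPM, others 14.8 to 16.7 CPM) and VEGFA (125 CPM, others 103 to 109.6 CPM). ACP3 was highest in siNT replicate 2 (10.8 CPM, others 7.39 to 8.04 CPM) and CLSPN in siNT replicate 5 (70.3 CPM, others 51.8 to 56.4 CPM). ZNF692 was lowest in siNT replicate 4 (11.6 CPM, others 19.7 to 24.1 CPM).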

How the results depend on the processing

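The KLK3 difference between the subsets was −0.65 to −0.61 when 1 siCHKA replicate was left out and −0.58 with the offset for GC content and length. Its direction held in every setting run, but KLK3 marked the subsets, so that direction was fixed by their choice. CHKA ranged from −0.82 to −0.32 when 1 replicate was left out. Higher and lower genes numbered 965 to 1277 and 1600 to 1901 with 1 replicate left out, and 1326 and 2794 with no filter. Without a minimum fold they numbered 3565 and 3318, at 1.5-fold 114 and 592, and at 2-fold 9 and 97. Lower genes were 60.4% of those counted, 59.0% with relative log expression (RLE) scaling in edgeR instead of TMM and 66.6% with the offset. The siNT split gave 0 to 6 genes with 1 replicate left out and 29 with no filter. The labelled comparison kept its direction and side of the threshold for KLK3 and CHKA in every setting. Its counts ranged from 4449 to 4584 higher and from 4208 to 4332 lower with 1 replicate left out, KLK3 from −0.62 to −0.49 and CHKA from −4.09 to −3.78. Deviations from the group mean did not go together in siCHKA and siNT samples of one number (correlations −0.40 to 0.32, 1 of 6 best matched by its own number). These correlations take all tested genes at once, so they cannot exclude that the numbers pair samples in some genes. With the replicate number as a block, 4494 genes were higher and 4273 lower, KLK3 was at −0.58 (adjusted p = 0.000137, edgeR) and CHKA at −3.90. Over 33 lists and 10 settings, 284 of 330 medians stayed within 1 SD of the main value, and 16 changed sign, in 7 lists. Depth limits genes near 1 CPM and below.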
